A study of Mus musculus with 5 samples.

Results

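The E2F and DP genes encode the transcription factors that act at the passage from G1 into S phase, and all 10 of them (E2f1 to E2f8, Tfdp1 and Tfdp2) were followed here in N2a cells, a mouse neuroblastoma cell line. They were chosen by name, matched from Ensembl identifiers through GENCODE M21, and are 10 of 54838 genes listed. Total RNA depleted of ribosomal RNA was sequenced from N2a cells transfected with a control siRNA (siCtrl, 2 libraries) or with an siRNA against Ewsr1 (siEwsr1, 3 libraries), collected 24 hours after the last transfection. Ewsr1 encodes an RNA-binding protein of the FET family. No untransfected cells are among the libraries, the labels give 1 siRNA name for each group and a concentration of 100 µM for both, and no label ties the libraries to independent cultures. The p-values therefore reflect how far these 5 libraries scatter, part or all of which may be technical.

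E2F proteins bind DNA at promoters of cell cycle genes. E2F1 to E2F6 do so as pairs with a DP protein, the product of Tfdp1 or Tfdp2, whereas E2F7 and E2F8 bind without DP. E2F1, E2F2 and E2F3 are classed as activators that are held inactive by the retinoblastoma protein until cyclin-dependent kinases phosphorylate it. E2F4 and E2F5 work mainly as repressors with the pocket proteins p107 and p130, E2F6 represses through a Polycomb complex without pocket proteins, and E2F7 and E2F8 are atypical repressors. Levels below are RPKM (reads scaled to exon length and to the counted reads of the library), so they can be compared between genes, and all are levels of messages, not of proteins.

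The libraries held 15045774 to 21339459 counted reads, and no member had fewer than 330 reads in any of them. The targeted gene was checked first. Ewsr1 stood at 71.7 and 72.3 RPKM in siCtrl and at 35.7, 36.3 and 37.6 RPKM in siEwsr1, a log2 fold change of -0.96 (SE 0.08, limma adjusted p = 0.0215). Among neuroblastoma markers 15 of 16 had enough reads to be tested. Of 9 fibroblast and mural markers Col3a1 and Lum were at 0, and Col1a1, Col1a2 and Dcn reached at most 0.0198 RPKM in any library. The summed level of the list was 36.7 to 36.9 RPKM in siCtrl and 24.6 to 31.4 RPKM in siEwsr1. Most of it came from Fbln1 (33.5 RPKM in both siCtrl libraries). Of the 4 tested, 3 were lower in every siEwsr1 library than in both controls, where 21.3% of all genes tested were. The list median log2 fold change was -0.78, and 1 gene was called lower, where 0.965% of all genes were. That gene, Acta2, encodes a smooth muscle actin. It fell from 2.76 ± 0.182 RPKM (SD, n = 2) to 0.857 ± 0.0692 RPKM (SD, n = 3), a log2 fold change of -1.56 (limma adjusted p = 0.024). The part of these markers in the results below was not tested. Summed immune markers stayed between 0.603 and 1 RPKM. In such bulk RNA, fewer cells of a type and less RNA per cell cannot be told apart.

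Sequences are shown first for E2F motifs in the promoters of members. Of the 10 members, 8 have a promoter in the RefSeq table (GRCm38.p6; 250 bases before to 50 after each start), and E2f4 and E2f5 have none there. A core E2F motif (TTTCGCGC, TTTGGCGC, TTTCCCGC or TTTGCCGC, searched on both strands) was found in 4 of these 8, against 2.6% of all 27025 genes with a promoter and 4.88% of the 10023 tested ones. The windows below lie at chr4:136172294-136172323 (plus strand), chr13:29986056-29986085 (minus), chr10:110745230-110745259 (plus) and chr8:13338697-13338726 (plus), are written 5′ to 3′ on the gene's own strand, and carry the motif or its reverse complement in capitals.
E2f2 promoter: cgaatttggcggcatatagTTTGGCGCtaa
E2f3 promoter: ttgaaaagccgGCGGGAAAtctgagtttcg
E2f7 promoter: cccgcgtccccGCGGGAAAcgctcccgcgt
Tfdp1 promoter: gggcgccgaagGCGCGAAAaggcgcgcagg
The promoters of E2f1, E2f6, E2f8 and Tfdp2 in the table held none of these letters, which says nothing of whether an E2F binds there. For E2f1 (chr2:154569377-154569676) and Tfdp2 (chr9:96258455-96258754 and chr9:96258998-96259297) these windows lie inside the gene as annotated in GENCODE M21. The bases before the outermost annotated start of E2f1 and of Tfdp2 were not searched.

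A second pair of sequences sets the member that moved most beside one that did not pass the test. The 7-mer TCACTGC was picked in earlier work on these same fold changes, so its share among genes that rose is no independent evidence: it lies in 49.5% of the genes called higher that have a 3′ UTR, and in 14.3% of all 11915 tested genes with a 3′ UTR. Among the members it occurs in the 3′ UTRs of E2f5 (chr3:14606089-14606095, plus strand) and E2f2 (chr4:136193293-136193299, plus strand), shown here within 30 bases of GENCODE M21 transcript sequence with the 7-mer in capitals.
E2f5 site: caaacagacatTCACTGCcatatataaagt
E2f2 site: agggaaagggcTCACTGCctccttctgagg
E2f1 has no such 7-mer in its annotated 3′ UTR.

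Across the family, E2f5 and E2f1 were higher after Ewsr1 knockdown and no other member passed the test. With limma over 14916 genes, 2 of 10 members were called higher at an adjusted p under 0.05, where 0.811% of all genes were, and 0 were called lower, where 0.965% of all genes were. At an unadjusted p under 0.05, 3 members were higher and 1 lower (20.3% of all genes passed that in either direction). In 7 members every siEwsr1 library lay above both siCtrl libraries, and in 1 every one lay below; of all genes tested, 18.6% and 21.3% did so. The log2 fold change was above 0 for 9 of 10 members, with a median of 0.20 against -0.01 over all genes tested, of which 49.3% were above 0.

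**Figure D1:**
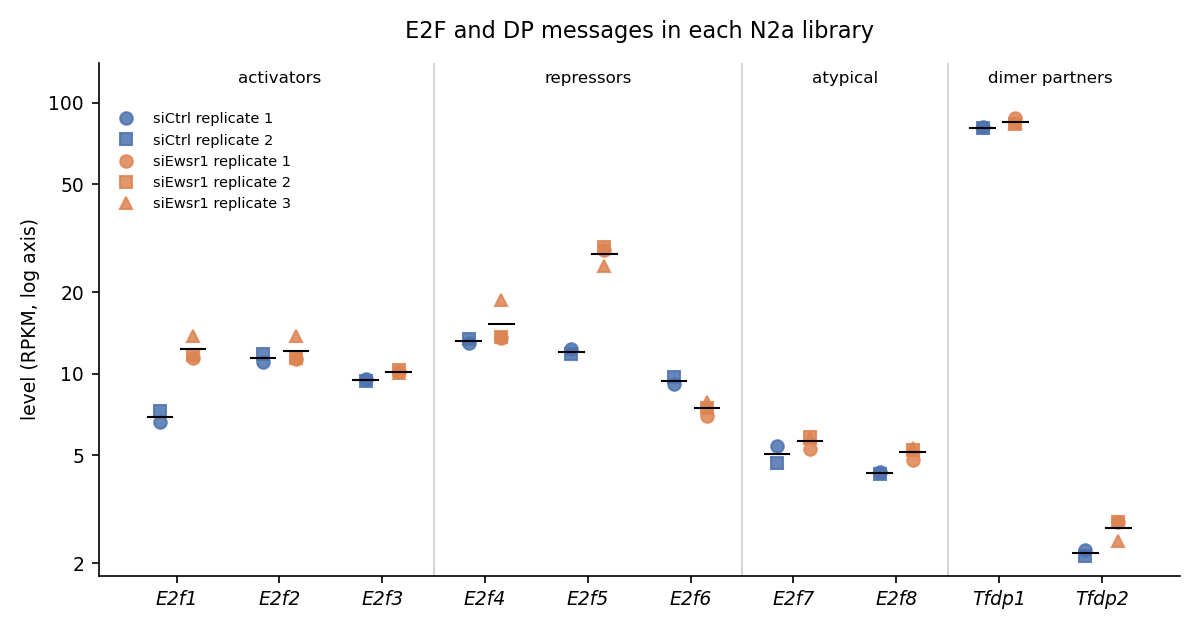
Level of each E2F and DP message in each of the 5 N2a libraries (RPKM, logarithmic axis), grouped by class; points are libraries and black lines group means. E2f5 rises from a mean of 12 to 27.7 RPKM and E2f1 from 6.96 to 12.3 RPKM, while Tfdp1 lies above all E2F genes in every library.

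Among the activators, E2f1 (chr2:154559407-154569892, minus strand), which drives S-phase genes and can also induce apoptosis genes, stood at 6.64 and 7.29 RPKM in siCtrl and at 11.4, 11.7 and 13.8 RPKM in siEwsr1. The groups were apart by more than the range within either. Its mean rose from 6.96 ± 0.461 RPKM (SD, n = 2) to 12.3 ± 1.3 RPKM (SD, n = 3), a log2 fold change of 0.83 (SE 0.11, 95% interval 0.57 to 1.09, limma adjusted p = 0.0268), or 1.78-fold. E2f2 (chr4:136172394-136196057, plus strand), another activator, stood at 11.1 and 11.8 RPKM against 11.3, 11.4 and 13.8 RPKM. Those groups overlapped, and only siEwsr1 replicate 3 lay above both controls; the log2 fold change was 0.10 (95% interval -0.15 to 0.36, limma adjusted p = 0.621). E2f3 (chr13:29906575-29986063, minus strand), whose locus gives both an activating and a repressing isoform, stood at 9.57 and 9.41 RPKM against 10.2, 10.3 and 10.1 RPKM. The siEwsr1 libraries were all slightly above the controls, with a log2 fold change of 0.13 (95% interval -0.08 to 0.33, limma adjusted p = 0.453), and the per-gene values do not separate the isoforms.

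Among the repressors, E2f5 (chr3:14578641-14606309, plus strand) had the widest separation of any member. It stood at 12.3 and 11.8 RPKM in siCtrl and at 28.6, 29.5 and 25.1 RPKM in siEwsr1. Every siEwsr1 library was above 25 RPKM and both controls were below 13 RPKM. The mean rose from 12 ± 0.341 RPKM (SD, n = 2) to 27.7 ± 2.3 RPKM (SD, n = 3), a log2 fold change of 1.22 (SE 0.11, 95% interval 0.96 to 1.47, limma adjusted p = 0.0221), or 2.32-fold. E2f5 shares 26 of 1782 exonic bases with 1810022K09Rik on the opposite strand, and the strand setting of the counting is not given in the sources used here. 1810022K09Rik stood at 42.1 and 34.5 RPKM against 52.5, 52.8 and 34.9 RPKM (log2 fold change 0.29, limma adjusted p = 0.48).

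E2f4 (chr8:105297663-105305370, plus strand), usually the most abundant E2F of resting cells, stood at 13 and 13.4 RPKM against 13.6, 13.7 and 18.7 RPKM. The first 2 siEwsr1 libraries lay just above the controls and replicate 3 far above them, giving a log2 fold change of 0.22 (95% interval -0.12 to 0.56, limma adjusted p = 0.439). E2f6 (chr12:16810963-16839742, plus strand) was the one member with a negative value. It stood at 9.17 and 9.7 RPKM against 6.97, 7.46 and 7.9 RPKM, so all siEwsr1 libraries were below both controls, but it did not pass the test (log2 fold change -0.32, SE 0.10, 95% interval -0.54 to -0.09, limma adjusted p = 0.139). Of 16 alternatives 1 called E2f6: without siEwsr1 replicate 3 its adjusted p was 0.0451, in a fit that called 980 of 14569 genes lower. Its adjusted p reached 0.591 in the others.

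No atypical repressor or dimer partner passed the test. E2f7 (chr10:110745439-110787384, plus strand) stood at 5.42 and 4.67 RPKM against 5.29, 5.83 and 5.82 RPKM, and the groups overlapped (log2 fold change 0.18, limma adjusted p = 0.428). E2f8 (chr7:48866429-48881596, minus strand), which acts with E2f7 on the same promoters, stood at 4.33 and 4.28 RPKM against 4.8, 5.24 and 5.34 RPKM. Its groups did not overlap and its log2 fold change of 0.27 had a 95% interval of 0.02 to 0.52, with a limma adjusted p of 0.222. Tfdp1 (chr8:13338751-13378448, plus strand), the main DP partner, stood at 81.5 and 80.8 RPKM against 87.7, 83.6 and 84.1 RPKM (log2 fold change 0.09, 95% interval -0.10 to 0.28, limma adjusted p = 0.556). Tfdp2 (chr9:96196275-96323646, plus strand) stood at 2.24 and 2.13 RPKM against 2.85, 2.84 and 2.41 RPKM (log2 fold change 0.31, 95% interval -0.04 to 0.66, limma adjusted p = 0.287). Both DP genes were a little higher in every siEwsr1 library, within intervals that include 0.

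**Figure D2:**
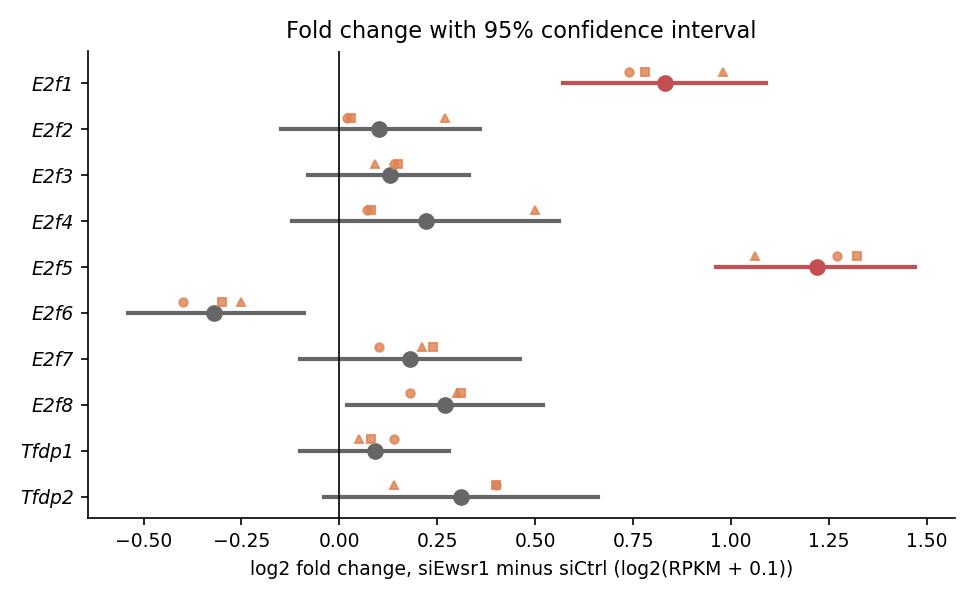
Log2 fold change of each member, siEwsr1 minus siCtrl, with its 95% confidence interval (large points and bars; red where the limma adjusted p is under 0.05) and each siEwsr1 library against the siCtrl mean (small orange symbols: circle, square and triangle for replicates 1, 2 and 3). E2f5 at 1.22 and E2f1 at 0.83 stand apart from the other 8, which lie between -0.32 and 0.31.

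Both calls rest on few libraries. When siCtrl replicate 1 was left out, or siCtrl replicate 2, or siEwsr1 replicate 1, limma called no gene at all. The adjusted p of E2f1 was then 0.281, 0.278 and 0.144 and that of E2f5 0.268, 0.278 and 0.125, while their log2 fold changes stayed at 0.78 to 0.88 and 1.17 to 1.26. Limma without a variance trend also called none (E2f1 adjusted p = 0.0814, E2f5 0.0746).

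The order of the family by level changed with E2f5 and E2f1. In siCtrl the order of the means was Tfdp1 (81.1 RPKM), E2f4 (13.2), E2f5 (12), E2f2 (11.4), E2f3 (9.49), E2f6 (9.44), E2f1 (6.96), E2f7 (5.05), E2f8 (4.31) and Tfdp2 (2.19). The libraries of E2f3 and E2f6 overlapped there, and those of E2f5 and E2f2 met. In siEwsr1 it was Tfdp1 (85.1 RPKM), E2f5 (27.7), E2f4 (15.3), E2f1 (12.3), E2f2 (12.1), E2f3 (10.2), E2f6 (7.45), E2f7 (5.65), E2f8 (5.13) and Tfdp2 (2.7). There the libraries of E2f4 overlapped those of E2f1, those of E2f1 overlapped those of E2f2, and those of E2f7 overlapped those of E2f8.

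As shares of the summed level of all 8 E2F genes, E2f5 made up 17.2% and 16.3% in siCtrl and 31%, 31% and 25% in siEwsr1. E2f1 went from 9.29% and 10.1% to 12.4%, 12.3% and 13.7%, and E2f6 from 12.8% and 13.4% to 7.56%, 7.85% and 7.86%. A share also falls when the total grows: the mean share of E2f2 went from 15.9% to 12.6%, that of E2f3 from 13.2% to 10.7%, that of E2f7 from 7.02% to 5.89% and that of E2f8 from 5.99% to 5.34%, while none of these 4 genes had a lower mean level in siEwsr1. The summed level itself was 71.5 and 72.4 RPKM in siCtrl and 92.2, 95 and 101 RPKM in siEwsr1, and without E2f5 it was 59.2 and 60.6 RPKM against 63.6, 65.5 and 75.4 RPKM. The ratio of summed DP to summed E2F level was 1.17 and 1.15 in siCtrl and 0.982, 0.91 and 0.86 in siEwsr1. Tfdp1 held 96.7% to 97.4% of the DP level in every library. These shares have no test of their own.

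**Figure D3:**
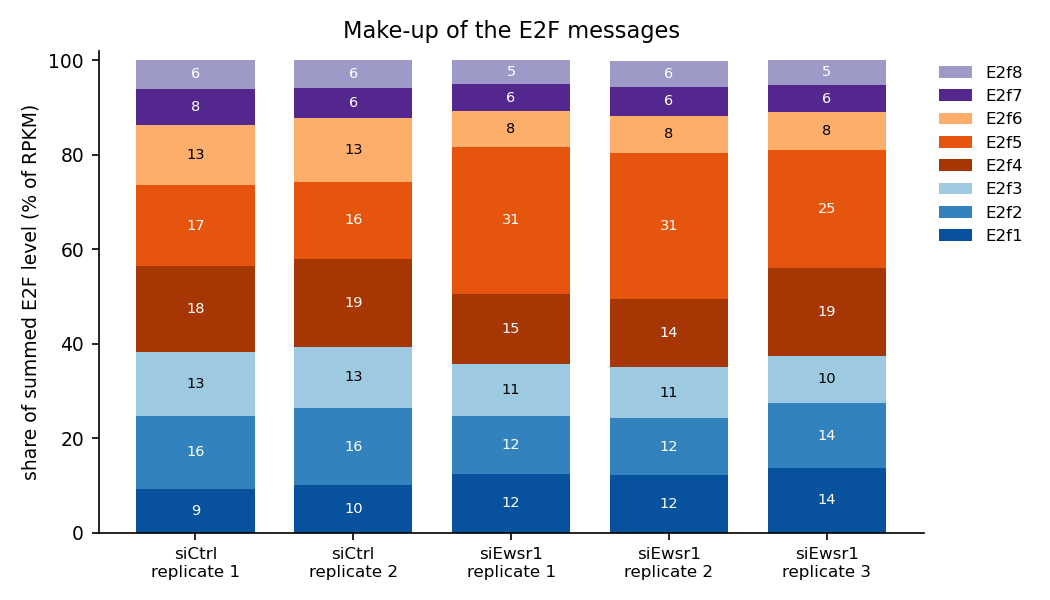
Share of each E2F gene in the summed level of the 8 E2F genes (percent of RPKM) for each library, stacked from E2f1 at the bottom to E2f8 at the top; blue marks activators, orange repressors and purple atypical repressors. The E2f5 block widens from 17.2% and 16.3% in siCtrl to between 25% and 31% in siEwsr1, and the E2f6 block narrows to below 8%.

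Activators and repressors did not part as classes. The mean log2 level of E2f1, E2f2 and E2f3 minus that of E2f4, E2f5 and E2f6 was -0.35 and -0.31 in siCtrl and -0.34, -0.38 and -0.32 in siEwsr1, a change of -0.02. Both class means were higher in siEwsr1, by 0.35 for the activators and 0.37 for the repressors on the log2 scale, and in each class 1 gene passed the test. With E2f5 left out of the repressors the same difference was -0.29 in both siCtrl libraries and 0.17, 0.13 and 0.03 in siEwsr1, a change of 0.40. With the member that rose left out of each class, E2f1 as well as E2f5, it was -0.08 and -0.12 in siCtrl and 0.14, 0.10 and -0.04 in siEwsr1, a change of 0.17. Taken as the log2 ratio of summed RPKM per class it changed by -0.23, so its sign depends on how the classes are summed. Gene by gene, E2f1 gained 0.61 on E2f4 and 1.15 on E2f6 on the log2 scale, and changed by -0.39 against E2f5. E2f2 and E2f3 changed by -0.11 and -0.09 against E2f4, by 0.42 and 0.44 against E2f6, and by -1.11 and -1.09 against E2f5.

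**Figure D4:**
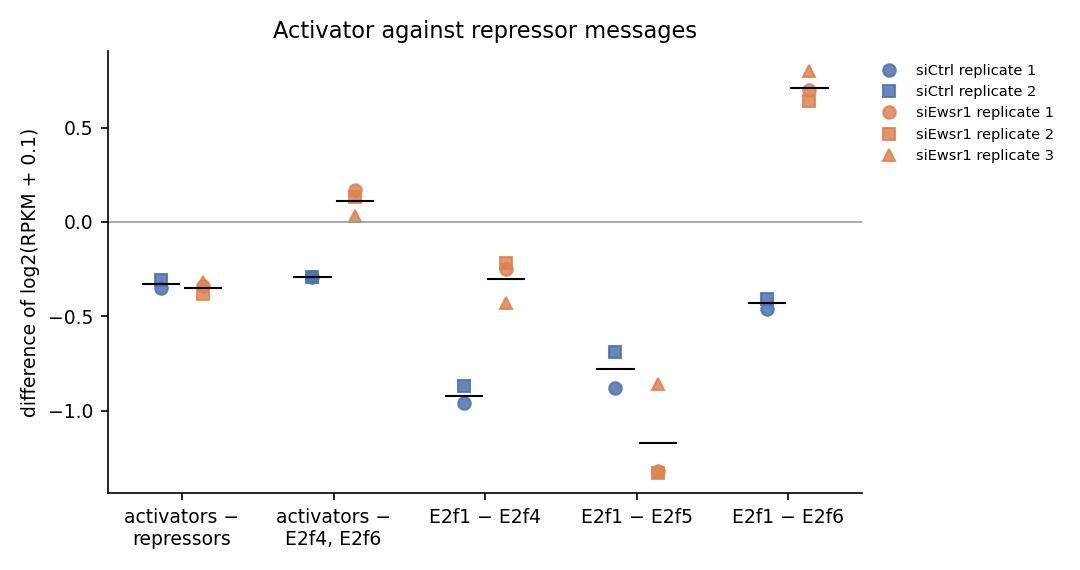
Difference between activator and repressor levels in each library, on the log2(RPKM + 0.1) scale; points are libraries and black lines group means. The class difference lies between -0.38 and -0.31 in all 5 libraries, and lies above 0 in the siEwsr1 libraries once E2f5 alone is left out.

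The genes that act on the E2Fs were described list by list. Over all genes tested, 0.811% were called higher and 0.965% lower, and 20.3% passed an unadjusted p under 0.05 in either direction. None of the 3 pocket protein genes was called by limma, with 1 higher at an unadjusted p under 0.05. Rb1, the retinoblastoma gene, stood at 3.15 and 3.01 RPKM against 4.84, 4.88 and 4.23 RPKM (log2 fold change 0.60, 95% interval 0.30 to 0.90, limma adjusted p = 0.0708). Rbl1 (p107) and Rbl2 (p130) had log2 fold changes of 0.04 and 0.09. Of 12 tested genes for cyclins, kinases and inhibitors acting on pocket proteins 1 was called higher. That was Ccne1, the cyclin E1 gene and itself an E2F target, at 9.46 and 11.2 RPKM against 15.2, 16 and 17.9 RPKM (log2 fold change 0.69, SE 0.11, limma adjusted p = 0.0408). The most abundant of the list, Cdk4 and Ccna2, had log2 fold changes of -0.05 and 0.05.

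Of 11 genes for turnover of E2F and DP proteins, 2 were called higher (0.811% of all genes were) and 0 lower. At an unadjusted p under 0.05, 4 were higher and 0 lower, where 20.3% of all genes passed in either direction. In 6 every siEwsr1 library lay above both controls and in 1 below, where 18.6% and 21.3% of all genes tested did so. Skp1a, which encodes the adaptor subunit SKP1 of SCF ubiquitin ligases, stood at 150 and 147 RPKM against 306, 309 and 251 RPKM (log2 fold change 0.97, SE 0.12, limma adjusted p = 0.0268). Usp11, a deubiquitinase gene, stood at 4.49 and 4.11 RPKM against 6.81, 6.45 and 7.72 RPKM (log2 fold change 0.71, SE 0.12, limma adjusted p = 0.0428). The 3′ UTR of Skp1a carries TCACTGC, as that of E2f5 does, and that of Usp11 does not. Of 6 tested upstream factors none was called, with 1 higher and 1 lower at an unadjusted p under 0.05. Myc and Sp1, the most abundant of them, had log2 fold changes of -0.12 and 0.02.

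The MuvB core binds pocket proteins and E2F4 in the DREAM complex. None of 8 genes for this core and its partners was called by limma, and 0 passed an unadjusted p under 0.05. The list median was 0.13, with Rbbp4 at 0.17 and Lin54 at 0.08. Of 12 tested genes for E2F6 complex partners none was called by limma, and 2 were higher at an unadjusted p under 0.05. The median was 0.09, with the deacetylase gene Hdac2 at 0.01 and Yaf2 at 0.19. Of 16 germline genes known to be repressed through E2F6, 1 had enough reads to be tested. That gene, Dazl, stood at 0.88 and 0.756 RPKM against 1.18, 1.47 and 0.884 RPKM (log2 fold change 0.48, 95% interval -0.14 to 1.09, limma adjusted p = 0.347).

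Among the targets, all 53 genes that E2F drives at G1/S were tested. Limma called 3 of them higher (0.811% of all genes were) and 0 lower, and did not call the other 50. At an unadjusted p under 0.05, 22 were higher and 0 lower, where 20.3% of all genes passed in either direction. In 48 of 53 the log2 fold change was above 0, and the list median was 0.23, against -0.01 over all genes tested, at 0.22, 0.21 and 0.21 in the siEwsr1 libraries against the siCtrl mean. A median of that size was not particular to this list. The neuroblastoma markers had one of 0.22, with 11 of 15 tested genes above 0 and 2 called higher, where 0.811% of all genes were. Rfc5, a clamp loader subunit gene, stood at 11.6 and 12.6 RPKM against 19.4, 18.3 and 20.1 RPKM (log2 fold change 0.68, SE 0.09, limma adjusted p = 0.0268). Mcm6, a subunit gene of the replicative helicase, stood at 58.8 and 60.2 RPKM against 79.5, 78.9 and 80.8 RPKM (log2 fold change 0.44, SE 0.07, limma adjusted p = 0.0435). Ccne1, given above, was the third. A core E2F motif lay in 18 of 43 G1/S genes with a promoter (41.9%), in 1 of 3 called higher and 17 of 40 of the others.

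Of 30 G2/M genes of the MuvB and DREAM complexes none was called by limma, with 2 higher and 4 lower at an unadjusted p under 0.05. Their median was -0.01, with Top2a at 0.03 and Ccnb1 at -0.07. Of 8 tested apoptosis genes driven by E2F1, limma called 0 higher, and 0 were higher at an unadjusted p under 0.05. Their median was -0.03, with Aatf at -0.05. Over the 10 lists, 5 of 139 tested genes were called higher and 1 lower, where 0.811% and 0.965% of all genes were. With the variance trend on reads in place of levels, a fit chosen after its counts were seen, the counts over the 10 lists were 12 and 3, with 8 G1/S genes higher.

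**Figure D5:**
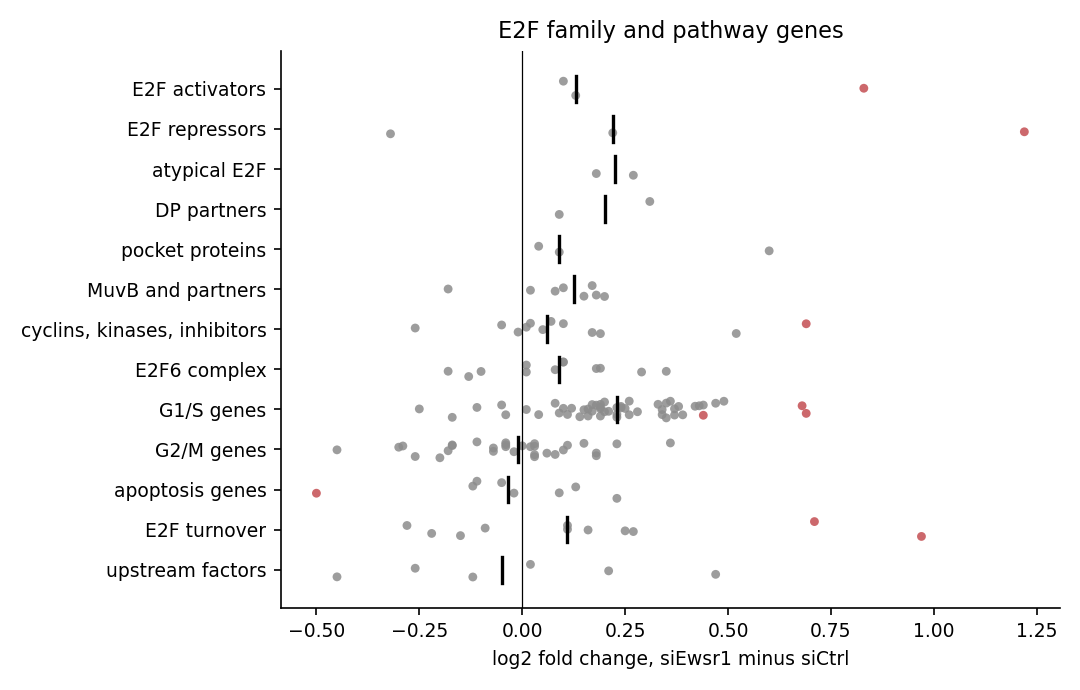
Log2 fold change of every tested gene, siEwsr1 minus siCtrl, in the 4 classes of members and 9 pathway lists; points are genes (red where the limma adjusted p is under 0.05) and black bars list medians. The G1/S genes have a median of 0.23 and the G2/M genes one of -0.01.

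The genes whose profile over the 5 libraries lay closest to a member were named by the root mean square difference of log2 levels, among 7520 tested genes with a mean of at least 5 RPKM. For E2f1 they were Cdr2l (0.029), Npm3 (0.061) and Crat (0.064). Cdr2l stood at 17.7 and 19 RPKM against 30.2, 29.4 and 35.7 RPKM. For E2f5 they were Snrpe (0.054), Smim15 (0.055) and Sptssa (0.057). Snrpe, a core spliceosomal protein gene, stood at 62.4 and 60.8 RPKM against 135, 139 and 119 RPKM. Like E2f5, Snrpe, Smim15 and Sptssa were lowest in replicate 3 among the siEwsr1 libraries, which follows from picking them by their profile. TCACTGC lies in the 3′ UTRs of Smim15, Cdr2l and Crat, and not in those of Snrpe, Sptssa and Npm3.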

How the data were processed

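Per the submitters' processing notes, reads were aligned with STAR 2.5.2b to GRCm38, counted with featureCounts 1.5.1 and handled in edgeR; the strand setting, annotation release and filters were not stated there. The deposited values are RPKM per gene made by the authors; values under 1 are intact, and larger ones lost the decimal point. It was put back where value, GENCODE M21 exonic length and counted reads give whole reads (98.5% to 98.6% of intact values came out whole), and among such readings the one bringing libraries closest was taken (odds limit 20). Of 27255 genes above 0, 99 were left out as uncertain. Recovered reads summed to within 0.1% of the totals. E2f1, E2f4, Tfdp1 and Ewsr1 each have 1 library read above the lowest position. Tested on simulated data, 7966 of 7967 kept genes were restored correctly, though only 3920 of the 8000 simulated had a value of 1 or more. Only 35 of 50 genes raised 4-fold and 40 of 50 lowered as much were kept, so strong changes are lost more often. The losses fall on genes with a value of 1 or more, 27 of the raised and 21 of the lowered ones. All members have such values.

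A gene entered the test with 10 or more reads, scaled to the median total, in 2 or more libraries. The test was limma 3.58.1 (R 4.3.3) on log2(RPKM + 0.1) after TMM scaling, with group as the only term, robust moderation and limma's own variance trend over levels. Adjustment was Benjamini-Hochberg over 14916 genes, called under 0.05. On this scale the fold change of a gene with a low level is understated. The same comparison was tested on simulated data (14347 genes). Called were 29 of 50 genes changed 1.5-fold, 42 of 49 changed 2-fold, 46 of 49 changed 3-fold and 48 of 49 changed 4-fold, beside 21 of 14150 unchanged genes. The simulated reads had the same spread for every gene and no library set apart. They therefore do not show how many calls in the real libraries are false. Planned count models on recovered reads are not reported, since the deposited values are not counts.

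The members, gene lists and tests were chosen with earlier results of these data known. Settings of the restoration were adjusted over several runs after the read sums, and the loss of Ewsr1 under stricter settings, had been seen. In all, 6 combinations of variance trend and moderation were tried and their counts seen: with robust moderation, a trend on levels called 265 genes, a trend on reads 771, and no trend 0. The trend on levels, as planned, is the one reported; the others were added later. Named genes are all members, Ewsr1, up to 6 called genes of each list by adjusted p (the 2 most abundant where fewer than 2 were called) and the 3 genes most alike to E2f1 and E2f5; a few genes that this rule names are not reported here. Single genes have an exact permutation floor of p = 0.1 with 2 against 3 libraries.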

Additional observations from a re-analysis of the deposited data

How the results depend on the processing

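Log2 fold changes of E2f5 (1.16 to 1.30) and E2f1 (0.75 to 0.88) kept their direction in every alternative that tested them; 11 of 16 called E2f5 and 10 of 15 called E2f1. Members called higher numbered 0 with no filter on reads, 0 without a variance trend and 1 with genes at the lowest decimal position only, where E2f1 was not tested, and 0 to 2 with a library left out; members called lower numbered 0 to 1. Pathway genes called higher (5) and lower (1) numbered 0 and 0 with no filter or no trend, 11 and 2 with a minimum of 50 reads, 3 and 0 scaled by library total, 12 and 3 with the trend on reads, 2 and 0 at the lowest position, and 0 to 30 and 0 to 4 with a library left out. G1/S genes called higher (3) numbered 0, 0, 7, 8 and 1 with no filter, no trend, 50 reads, the trend on reads and the lowest position, and 0 to 17 with a library left out. The largest counts came without siEwsr1 replicate 3; the cause was not tested. The activator minus repressor change (-0.02) was 0.04 with E2f7 and E2f8 among the repressors, 0.40 without E2f5 and -0.23 from summed RPKM. A library left alone in its group is assumed to vary like the others.

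Over all genes, calls higher and lower (121 and 144) numbered 0 and 0 with no filter, no trend, or with either siCtrl library or siEwsr1 replicate 1 left out; 240 and 340 with 50 reads; 368 and 403 with the trend on reads; 47 and 61 at the lowest position; 70 and 97 when siEwsr1 replicate 2 was left out; and 993 and 980 when replicate 3 was. The planned count models are not reported, since the deposited values are not counts.

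With the replicate number as a block, 2 members were called higher and 0 lower, 5 pathway genes higher and 1 lower, and 3 G1/S genes higher; over all genes 270 and 290 were called. Only 2 numbers are shared, and the deviations of same-numbered libraries from their group means correlated with r = 0.027 and r = -0.123 across genes. With 2 siCtrl libraries their deviations mirror each other, so these values cannot tell whether same-numbered libraries share more than the number. The block gives siEwsr1 replicate 3 no weight in the group difference.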
